A study of Mus musculus with 5 samples.

Results

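The genes described here encode the leukocyte beta-2 integrins and the ICAM ligands that they bind, 6 genes of 18193 with a probeset of their own. They were taken by name, Itgal, Itgam, Itgax, Itgb2, Icam1 and Icam2, and 7 probesets of the array measure them. Itgal has 2 probesets and each of the others has 1. Their RNA was compared between CD11A+ HSCs (2 arrays) and CD11A- HSCs (3 arrays), which are subfractions of hematopoietic stem cells from bone marrow of male C57/Bl6 mice. Both came from one stem cell gate (lineage-negative, FLK2- and CD34-, and positive for CD27, KIT, SCA-1, CD150 and EPCR) and were then separated by surface CD11A, so Itgal encodes the protein that defines the groups. Each array held RNA of 1011 to 2293 cells from 1 or 2 mice, KIT-enriched, sorted in a first and a second pass, amplified in 2 cycles and hybridized to an Affymetrix mouse array.

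An integrin is a pair of an alpha and a beta chain on the cell surface. The beta-2 chain CD18, encoded by Itgb2, pairs with CD11A (Itgal) to form LFA-1, with CD11B (Itgam) to form MAC1, and with CD11C (Itgax), and the chains reach the surface of leukocytes only as pairs. LFA-1 binds ICAM-1 and ICAM-2, immunoglobulin-like proteins of endothelium and leukocytes, and this binding holds leukocytes to vessel walls and to other cells. MAC1 is a marker of granulocytes and macrophages and part of the lineage cocktail that the gate selects against, and CD11C marks dendritic cells. In the RefSeq annotation of GRCm38.p6, Itgam and Itgax are neighbouring protein-coding genes, with Itgad, a further alpha chain, next to them. Itgad has no probeset of its own in the platform annotation and was not analysed here.

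The labels record sort days, called A, B and C here. CD11A+ replicate 1 and CD11A- replicate 2 were sorted on day A from mice of 8 to 12 weeks, and CD11A+ replicate 2 and CD11A- replicate 3 on day B from mice of 10 weeks. CD11A- replicate 1 stood alone on day C, with mice of 6 weeks. The day A arrays stood apart in granulocyte transcripts. The mean log2 value of 10 genes of mature granulocytes was 8.97 and 5.71 in CD11A+ replicates 1 and 2, against 5.02, 7.82 and 4.94 in CD11A- replicates 1, 2 and 3. Not all of these genes followed that mean, since Mmp8, Mmp9 and Cxcr2 lay between 3.97 and 5.67 on all 5 arrays. The mean over 10 macrophage genes was 6.99 and 6.54 in the CD11A+ arrays and 5.18, 6.14 and 5.29 in the CD11A- arrays. Values were log2 expression normalized by RMA, with medians over all probesets of 5.55 to 5.62. The number of arrays limits the precision, and the files hold no detection calls, so it is not known which probesets were above background. Of the gate's own markers, Kit lay between 10.95 and 11.92 over the 5 arrays. Procr, which encodes EPCR, was 10.33 and 12.86 in CD11A+ HSCs, against 12.66, 11.64 and 12.84 in CD11A- HSCs. Slamf1, which encodes the CD150 selected for, was 9.24 and 7.91 in CD11A+ HSCs, against 9.69, 9.75 and 9.45 in CD11A- HSCs. Cd34, selected against, was 11.07 and 9.87 in CD11A+ HSCs, against 9.28, 9.76 and 9.35 in CD11A- HSCs. Flt3, which encodes the FLK2 selected against, was 9.38 and 8.79 in CD11A+ HSCs, against 8.13, 8.83 and 7.68 in CD11A- HSCs.

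No member differed at an adjusted p of 0.05 (limma, Benjamini-Hochberg over 45037 probesets, of which 0, or 0%, passed). At an unadjusted p under 0.05, 1917 probesets (4.26%) did, among them Icam1 alone of the 7 probesets. Itgal, Itgb2 and Itgam had higher means in CD11A+ than in CD11A- HSCs, and Icam1, Itgax and Icam2 had lower means. The median of the 6 differences was 0.10 log2 units, against -0.01 over all 18193 genes, of which 48.3% had a higher mean. Itgal, Itgb2 and Itgam were higher in CD11A+ HSCs on both sort days that hold a pair, as were 25.1% of all probesets. Itgax and Icam1 were lower on both days, as were 27.1% of all probesets, and Icam2 had opposite signs, as did 45.4%. The CD11A+ and CD11A- arrays did not overlap for Itgal (1435560_at) and Icam1, 2 of the 7 probesets, where 17.7% of all probesets did not. Arrays of one subfraction came from different sort days, and whether the pair of one day shares mice is not stated.

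**Figure D1:**
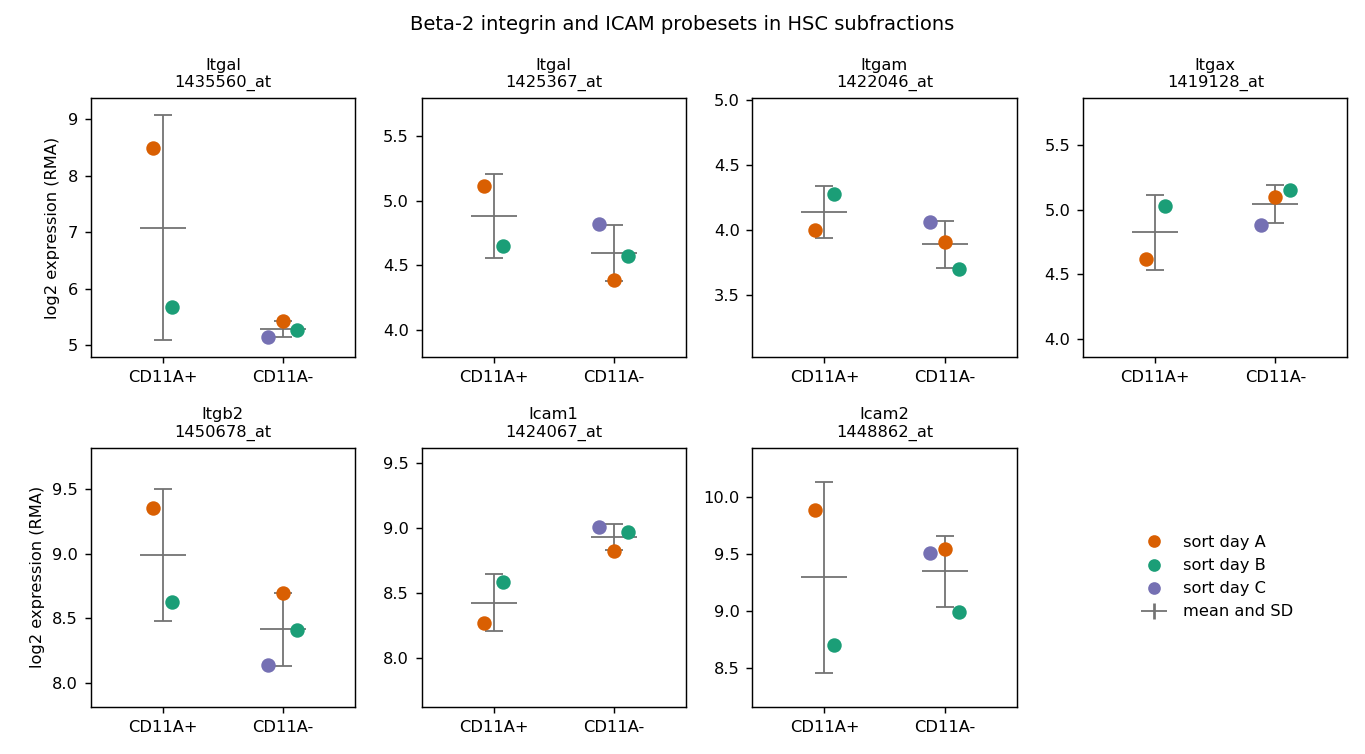
Log2 expression of each of the 7 probesets (vertical axes, which differ between panels) in the 2 CD11A+ arrays on the left of each panel and the 3 CD11A- arrays on the right. Points are arrays coloured by sort day, and grey lines are the mean and SD. For Itgal (1435560_at) 1 CD11A+ array lies at 8.49 and the other at 5.67, close to the CD11A- arrays, and for Icam1 both CD11A+ arrays lie below every CD11A- array.

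Itgal, the alpha chain of LFA-1, had log2 values of 8.49 and 5.67 in CD11A+ replicates 1 and 2, against 5.15, 5.43 and 5.27 in CD11A- replicates 1, 2 and 3 on probeset 1435560_at. The groups did not overlap, but the CD11A+ arrays lay above the CD11A- arrays by very unequal amounts. The difference between the CD11A+ arrays was 2.82, and the CD11A- arrays spanned 0.28. CD11A+ HSCs averaged 7.08 ± 1.99 (SD, n = 2), against 5.28 ± 0.14 (SD, n = 3) for CD11A- HSCs. All CD11A- values were below 6, the limit used for dim probesets, so no exact fold is given. The group difference of 1.80 (standard error 0.77, 95% interval -0.09 to 3.69) had an adjusted p of 1.00 from limma. The exact two-sided permutation test gave p = 0.1, the smallest that 2 against 3 arrays allow, and 8.71% of all probesets had their CD11A+ arrays above as Itgal did. The sort-day pairs gave 3.06 (day A) and 0.40 (day B), and a fit with sort day as a block gave 1.73 (adjusted p = 0.698 from limma). Leaving out CD11A+ replicate 1 gave 0.39, and leaving out CD11A+ replicate 2 gave 3.21. The adjusted p from limma lay between 0.0507, without CD11A+ replicate 2, and 1.00 over the alternatives run.

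The other Itgal probeset, 1425367_at, had log2 values of 5.11 and 4.65 in CD11A+ HSCs, against 4.82, 4.39 and 4.57 in CD11A- HSCs. The groups overlapped, since CD11A+ replicate 2 lay below CD11A- replicate 1. Its difference was 0.29 (standard error 0.23, 95% interval -0.29 to 0.86), with 0.72 for the pair of day A and 0.08 for that of day B. Leaving out CD11A+ replicate 1 gave 0.06. CD11A+ replicate 1 was the highest array on both probesets. Which stretch of the transcript each probeset covers was not analysed here.

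CD11A+ replicate 1, which held the highest Itgal value, was also the highest array for the granulocyte and macrophage lists. In each of these lists 9 of the 10 measured genes averaged higher in CD11A+ HSCs and none passed limma's adjusted threshold. Leaving out CD11A+ replicate 1 moved the median difference of the granulocyte list to -0.19, against 1.745 with it, and that of the macrophage list to 0.87, against 1.28. Day A was then represented by CD11A- replicate 2 alone. Within days, the median difference of the granulocyte list was 1.20 (day A) and 0.85 (day B). On each of these days 9 of the 10 genes were higher in the CD11A+ array. Among CD11A- arrays, replicate 2 had the highest granulocyte mean (7.82) and an Itgal value of 5.43, and replicates 1 and 3 had granulocyte means of 5.02 and 4.94 and Itgal values of 5.15 and 5.27. Cd48, a surface protein of progenitors and mature leukocytes that long-term HSCs lack, was 9.70 and 3.66 in the CD11A+ arrays, against 5.0, 5.13 and 3.65 in the CD11A- arrays. Nkg7, a granule protein of cytotoxic lymphocytes, was 10.29 and 5.72 in the CD11A+ arrays, against 5.76, 6.99 and 5.13 in the CD11A- arrays. Of the 6 measured lymphoid and NK cell genes, Nkg7 included, 3 averaged higher and 3 lower in CD11A+ HSCs, none passed limma's adjusted threshold, and the median difference was 0.00. For Itgal, Cd48 and Nkg7 alike, the high value belonged to CD11A+ replicate 1. Mecom, a transcription factor of HSCs, was 10.24 and 11.87 in the CD11A+ arrays, against 12.01, 11.46 and 12.03 in the CD11A- arrays. Of its 3 probesets, 1 had a CD11A+ minus CD11A- difference of the opposite sign. Hlf, also a transcription factor of HSCs, was 11.00 and 12.93 in the CD11A+ arrays, against 12.42, 11.92 and 12.77 in the CD11A- arrays. Procr, Mecom and Hlf were thus all lowest on CD11A+ replicate 1. The stem cell gate list pools markers selected for, markers selected against, and Cd48, Mecom and Hlf, which the gate does not use. Of its 9 measured genes, 4 averaged higher and 5 lower in CD11A+ HSCs (median -0.18, and 0.41 without CD11A+ replicate 1). Higher were Cd34 (1.01) and Flt3 (0.87), both selected against, Kit (0.10), selected for, and Cd48 (2.09). Lower were Procr (-0.785), Slamf1 (-1.055) and Cd27 (-0.18), all selected for, and Mecom (-0.78) and Hlf (-0.405). In that list Cd27, Cd34, Flt3 and Cd48 were highest on CD11A+ replicate 1, and Kit and Slamf1 were neither highest nor lowest there. The 3′ minus 5′ difference of the Gapdh control probesets, a sign of RNA quality, was 1.91 and 2.76 log2 units in the CD11A+ arrays, against 2.70, 2.22 and 2.80 in the CD11A- arrays. That of beta-actin was 1.94 and 2.09 log2 units in the CD11A+ arrays, against 2.51, 2.43 and 1.97 in the CD11A- arrays. CD11A+ replicate 1 was the lowest array in both, for beta-actin only just (1.94, against 1.97 in CD11A- replicate 3). The part of other cells and of RNA quality in the Itgal and Itgb2 values of that array was not tested.

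Itgb2, the beta chain of LFA-1, of MAC1 and of the pair with CD11C, had log2 values of 9.35 and 8.63 in CD11A+ HSCs, against 8.14, 8.70 and 8.41 in CD11A- HSCs. CD11A+ replicate 1 was the highest array again, and CD11A+ replicate 2 lay between the CD11A- arrays. CD11A+ HSCs averaged 8.99 ± 0.51 (SD, n = 2), against 8.42 ± 0.28 (SD, n = 3) for CD11A- HSCs. The difference of 0.57 (standard error 0.29, 95% interval -0.14 to 1.29) had an adjusted p of 1.00 from limma, and the exact two-sided permutation test gave p = 0.3. The pair of day A gave 0.65, that of day B 0.22, and a fit with sort day as a block 0.435. Leaving out CD11A+ replicate 1 gave 0.21 and leaving out CD11A+ replicate 2 gave 0.93. On both days the CD11A+ array was the higher of its pair. On day A both Itgb2 values were above those of the same subfraction on day B, as were the granulocyte means.

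Itgam, the alpha chain of MAC1, had log2 values of 4.00 and 4.28 in CD11A+ HSCs, against 4.06, 3.91 and 3.70 in CD11A- HSCs. The groups overlapped, and the difference was 0.25 (standard error 0.20, 95% interval -0.25 to 0.75, adjusted p = 1.00 from limma), with 0.09 within day A and 0.58 within day B. Its lowest and highest arrays were the pair of day B. The 2 arrays with the highest granulocyte means had Itgam values of 4.00 (CD11A+ replicate 1) and 3.91 (CD11A- replicate 2), within the span of the other 3 arrays. All 5 Itgam values were below 6, the limit used for dim probesets, and the part of granulocyte RNA in them was not tested.

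Itgax, the alpha chain CD11C, had log2 values of 4.62 and 5.03 in CD11A+ HSCs, against 4.88, 5.10 and 5.15 in CD11A- HSCs. CD11A+ replicate 1 was the lowest array, and CD11A+ replicate 2 lay above CD11A- replicate 1. The difference was -0.22 (standard error 0.21, 95% interval -0.74 to 0.30, adjusted p = 1.00 from limma), with -0.48 within day A, -0.12 within day B and -0.01 without CD11A+ replicate 1. Among 8 dendritic cell genes, 5 averaged higher and 3 lower in CD11A+ HSCs (median 0.19), and none passed limma's adjusted threshold. Zbtb46, a transcription factor of conventional dendritic cells, differed by -0.64, and its other 3 probesets had the opposite sign. The largest differences of this list went the other way, 0.94 for H2-Ab1 and 0.87 for Flt3. Flt3 also stands in the stem cell gate list.

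Icam1, a ligand of LFA-1 and MAC1, had the most even difference over the arrays. Its log2 values were 8.27 and 8.58 in CD11A+ HSCs, against 9.01, 8.82 and 8.97 in CD11A- HSCs. Neither CD11A+ array reached the lowest CD11A- array, and 9% of all probesets had their CD11A+ arrays below in this way. The difference of -0.51 (standard error 0.19, 95% interval -0.98 to -0.04) corresponds to a level in CD11A+ HSCs 0.703 times that in CD11A- HSCs. Its unadjusted p from limma was 0.0376, its adjusted p was 1.00, and the exact two-sided permutation test gave p = 0.1, the smallest these groups allow. Of all probesets, 1.46% were higher and 2.8% lower in CD11A+ HSCs at an unadjusted p under 0.05. The pair of day A gave -0.55, the pair of day B -0.39, and a fit with sort day as a block -0.47. Leaving out one array at a time gave -0.66 to -0.35.

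Icam2, the ligand of LFA-1 on endothelium and platelets, had log2 values of 9.89 and 8.70 in CD11A+ HSCs, against 9.51, 9.54 and 8.99 in CD11A- HSCs. The CD11A+ arrays held both the highest and the lowest value. The difference was -0.05 (standard error 0.39, 95% interval -1.01 to 0.91, adjusted p = 1.00 from limma), with 0.35 within day A and -0.29 within day B. It was -0.65 without CD11A+ replicate 1 and 0.54 without CD11A+ replicate 2, and its sign turned with 4 of the alternatives. Among these, sort day as a fixed block and leaving out CD11A- replicate 1 gave the same 0.03, since that array stood alone on day C. Both arrays of day B lay below the other 3. Cdh5, the cadherin of endothelial junctions, was 8.27 and 5.02 in the CD11A+ arrays, against 5.04, 6.62 and 5.33 in the CD11A- arrays, with the highest values on both arrays of day A. The endothelial genes did not share one pattern over the days. Kdr and Pecam1 were also highest on both arrays of day A. Tie1 was highest on both arrays of day B, at 8.57 and 9.22, and Emcn and Tek followed neither pattern. Among 6 endothelial genes, 3 averaged higher and 3 lower in CD11A+ HSCs, and their part in the Icam2 values was not tested.

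**Figure D2:**
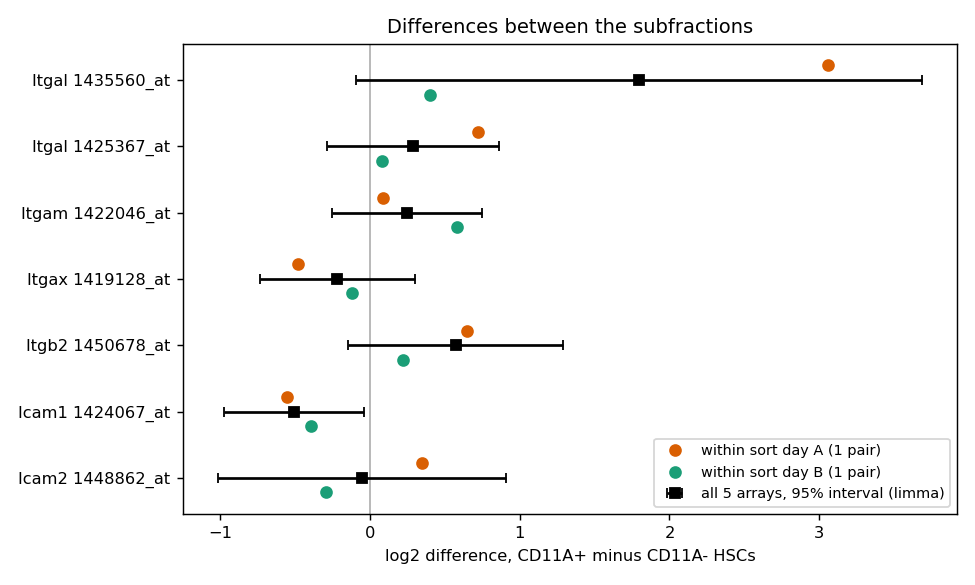
Log2 difference of CD11A+ minus CD11A- HSCs (horizontal axis) for each of the 7 probesets, as the value over all 5 arrays with its 95% interval from limma (squares) and as the values within sort days A and B (circles, 1 pair each). The interval of Icam1 (-0.98 to -0.04) is the only one that leaves out 0, and Itgal (1435560_at) has 3.06 within day A and 0.40 within day B.

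The members were set beside the marker lists array by array. Centred on its own mean over the arrays, Itgal was high on CD11A+ replicate 1 alone, whereas the mean of the granulocyte list was high on both arrays of day A. Itgb2 had its highest values, 9.35 and 8.70, on the day A arrays of CD11A+ and CD11A- HSCs. The macrophage list was higher in the CD11A+ array of both pairs, with median differences of 0.72 within day A and 1.19 within day B. For 6 of 10 macrophage genes, Vcam1 among them, the lower CD11A+ array still exceeded the highest CD11A- array, as it did for 8.71% of all probesets. Surface VCAM1 is not particular to macrophages, since the methods also use it to select multipotent progenitors. C1qc, a complement chain of tissue macrophages, was 7.12 and 6.29 in CD11A+ HSCs, against 4.16, 5.19 and 5.05 in CD11A- HSCs. Csf1r, the receptor of the macrophage growth factor, was 6.15 and 5.75 in CD11A+ HSCs, against 5.97, 6.17 and 6.00 in CD11A- HSCs, and its other 2 probesets had the opposite sign. The part of macrophage RNA in the differences of Itgal, Itgb2 and Itgam was not tested, and in bulk RNA more cells of a type and more RNA per cell cannot be told apart.

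**Figure D3:**
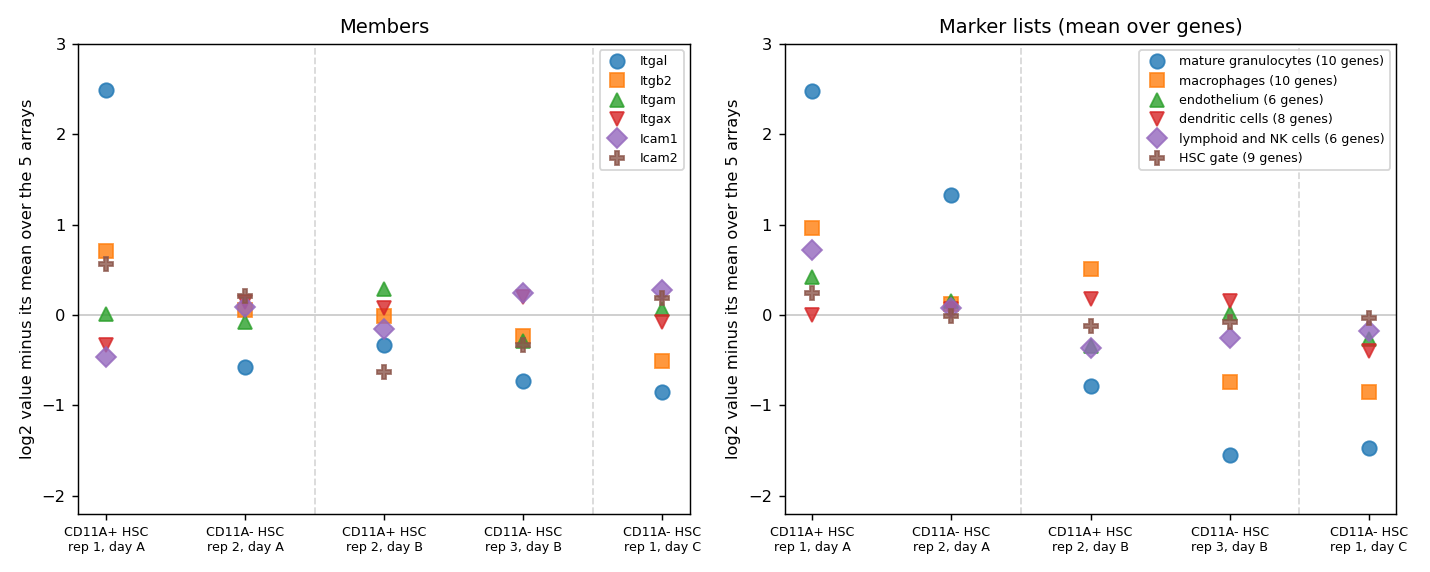
Log2 values of the 6 genes (left panel) and mean log2 values of the marker lists (right panel), each minus its own mean over the 5 arrays (vertical axes), with the arrays in order of sort day along the horizontal axis and the CD11A+ array left of its pair. Itgal is high on CD11A+ replicate 1, at 8.49, while the granulocyte list is high on both day A arrays, at 8.97 and 7.82.

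Relatives of these genes were read in the same way. Of Icam4, Icam5, F11r and Jam3, further ligands of beta-2 integrins, 1 averaged higher and 3 lower in CD11A+ HSCs (median -0.34), and none passed limma's adjusted threshold. Jam3, a junction protein that MAC1 binds, was 6.65 and 7.43 in CD11A+ HSCs, against 8.27, 8.09 and 8.12 in CD11A- HSCs. The groups did not overlap, as for 17.7% of all probesets. Jam3 differed by -1.12 (standard error 0.27, adjusted p = 1.00 from limma), with -1.44 within day A and -0.69 within day B. Icam4, a ligand on red cells and their precursors, differed by 0.49, with 1.38 within day A and -0.21 within day B. Icam5, a ligand of LFA-1 on neurons, differed by -0.26. F11r, which encodes JAM-A, a ligand of LFA-1, differed by -0.43 (-0.04 without CD11A+ replicate 1), and its other probeset had the opposite sign.

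Of 20 other integrin chains, 11 averaged higher and 9 lower in CD11A+ HSCs (median 0.005), and none passed limma's adjusted threshold. Itga2b, the alpha chain CD41 of platelets and megakaryocytes, was 10.17 and 8.80 in CD11A+ HSCs, against 8.41, 8.39 and 8.52 in CD11A- HSCs. As for Itgal, the groups did not overlap and CD11A+ replicate 1 lay far above CD11A+ replicate 2. Of the 20 chains, 1 had its CD11A+ arrays above and 2 below in this way, against 8.71% and 9% of all probesets. Itga2b differed by 1.05 (standard error 0.40, adjusted p = 1.00 from limma), and by 0.36 without CD11A+ replicate 1. Itga4, the alpha chain that pairs with beta-1 and binds VCAM1, was 8.62 and 9.52 in CD11A+ HSCs, against 8.99, 9.01 and 9.21 in CD11A- HSCs. Its difference was 0.00 (95% interval -0.73 to 0.73), with the CD11A+ arrays at the lower and the upper end. Itga1, a collagen-binding chain, differed by 0.75 (0.20 without CD11A+ replicate 1) and Itgb7, a partner of Itga4, by 0.34. Itgb8, a partner of the alpha-v chain, differed by -0.43, at values of 2.98 to 3.74 over the arrays.

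Integrins bind firmly only after proteins inside the cell switch them to their active form. Of 16 genes of this switch, 9 averaged higher and 7 lower in CD11A+ HSCs (median 0.02), and none passed limma's adjusted threshold. None had an unadjusted p under 0.05 from limma either, where 4.26% of all probesets did, so for 16 genes this count says little. Tln1, which encodes talin and binds the beta tail, was 9.47 and 9.58 in CD11A+ HSCs, against 9.42, 9.15 and 10.13 in CD11A- HSCs. Fermt3, which encodes kindlin-3, the leukocyte partner of talin, was 12.84 and 12.08 in CD11A+ HSCs, against 12.71, 12.85 and 12.47 in CD11A- HSCs. For both genes the groups overlapped, and 1 of 3 Tln1 probesets and 2 of 4 Fermt3 probesets had a difference of the opposite sign. Fyb, an adaptor between receptors and integrins, had the largest difference of this list, 0.71, with 1.85 within day A and -0.27 within day B. Skap2, a further adaptor, differed by 0.36, Vcl (vinculin) by -0.33 and Stk4, a kinase, by -0.29. The other Vcl probeset had the opposite sign.

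**Figure D4:**
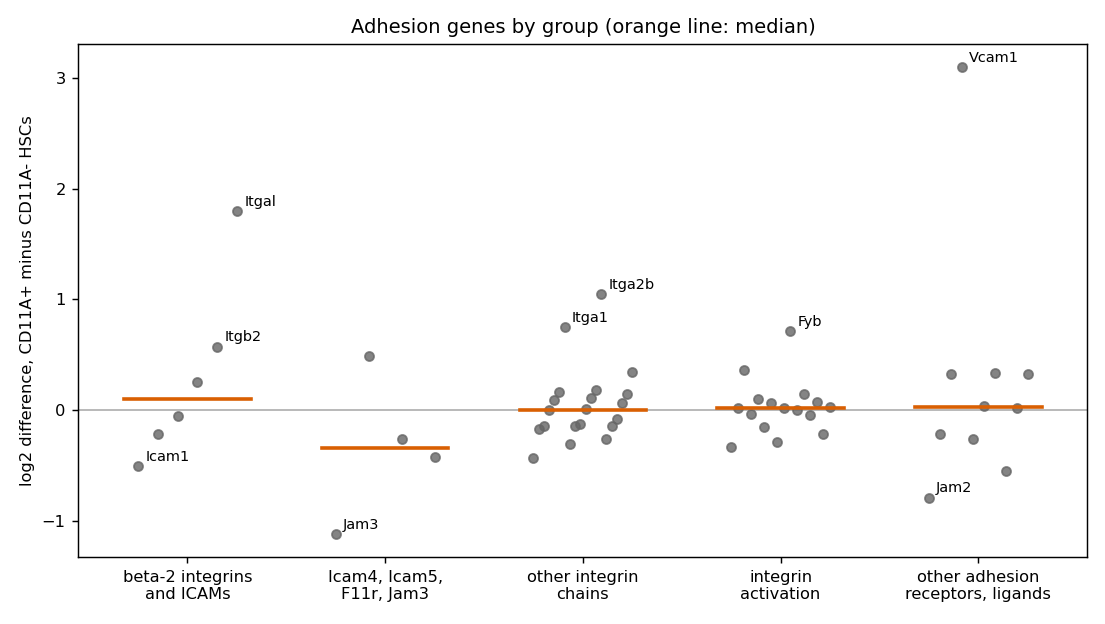
Log2 difference of CD11A+ minus CD11A- HSCs (vertical axis) for each gene of 5 groups of adhesion genes (horizontal axis), 1 point a gene, with the median of a group as an orange line. The medians lie between -0.34 and 0.10, and Vcam1 (3.10), Itgal (1.80), Jam3 (-1.12) and Itga2b (1.05) lie farthest from 0.

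Genes whose values over the 5 arrays ran most like those of Itgal were found by the root mean square distance after centring each gene on its own mean, among 16311 named genes. The 5 nearest were Tcim, Pou2af1, St8sia6, Arhgef39 and Cenpi, at distances of 0.19 to 0.22 log2 units. Pou2af1, a coactivator of B cells, was 6.65 and 3.37 in CD11A+ HSCs, against 3.44, 3.31 and 3.32 in CD11A- HSCs, and Cenpi, a centromere protein, was 7.66 and 4.63 in CD11A+ HSCs, against 4.64, 4.86 and 4.81 in CD11A- HSCs. Each of the 5 was high on CD11A+ replicate 1 alone, as Itgal was, which follows from how they were chosen. For Itgb2 the nearest were Tfpi, Wdr86, Tubb5, Smco4 and Dot1l, at 0.0316 to 0.0750 log2 units. Tubb5, a tubulin chain, was 12.88 and 12.20 in CD11A+ HSCs, against 11.87, 12.35 and 12.01 in CD11A- HSCs. With 5 arrays, which share their sort days, these distances describe the arrays alone.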

How the data were processed

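RNA of CD11A+ and CD11A- HSCs was measured on 5 Affymetrix arrays. Per the labels, RMA gave the log2 value of each probeset in the tables the authors deposited. Its version, and which arrays were normalized together, were not found in the sources used here. RMA makes the distributions of arrays alike. The methods also mention normalization on Gene Expression Commons. The 2 tables differed in 0 values for these arrays, and 40 columns of other samples were not used here.

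Of 45101 probesets, 64 controls were left out. A gene was named where the platform annotation gives 1 gene (34945 probesets, with several for 932 and none for 9160), and its brightest probeset on average stands for it. Of these probesets 34741 matched RefSeq by Entrez number and 0 symbols changed.

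CD11A+ minus CD11A- HSCs was fitted with limma 3.58.1 in R 4.3.3 (lmFit, eBayes, without a block), and p-values were adjusted by Benjamini-Hochberg over 45037 probesets. The fit was tested on simulated data. Single probesets also had an exact permutation test. The alternatives were the value table of the series, sort day as a block (fixed, or random), the replicate number as a block, other scalings (quantile, or median centring), array weights, an intensity trend, only probesets of at least 6 on 2 arrays, the mean of a gene's probesets, leaving out each array, the unpaired t-test that the methods name for another comparison and, chosen after seeing the data, leaving out day A.

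The members and lists, from general knowledge, were chosen with earlier results of these data known. Named were the 6 genes, up to 4 genes of each other list with the largest differences, Itgad, Itga4, and the 5 genes nearest in pattern to Itgal and Itgb2. Kit, Procr, Cd27, Mecom, Hlf, Mmp8, Mmp9, Cxcr2, Csf1r, Tie1, Pecam1, Tln1 and Fermt3 fell outside this rule and were chosen after their values were seen.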

Additional observations from a re-analysis of the deposited data

Results flagged for a closer look

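Icam2 (1448862_at) moved in opposite directions in the sort-day pairs. CD11A+ minus CD11A- HSCs was 0.35 within day A and -0.29 within day B, which are 0.64 log2 units apart. The difference between the days was not tested, since each holds 1 array per subfraction, and 45.4% of all probesets had opposite signs on the 2 days.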

How the results depend on the processing

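None of the 7 probesets passed an adjusted p of 0.05 under any alternative run. The lowest adjusted p was 0.0507, for Itgal (1435560_at) without CD11A+ replicate 2. Icam1, Itgb2, Itgam and Itgal (1435560_at) kept their direction under every alternative in which they were tested, from -0.66 to -0.35, 0.21 to 0.93, 0.11 to 0.40 and 0.39 to 3.21. Without sort day A the difference turned to -0.045 for Itgal (1425367_at) and to 0.015 for Itgax. Icam2 turned to 0.03 with sort day as a fixed block, and ran from -0.65 to 0.54 when one array was left out. The cause was not tested. Where 1 CD11A+ array was left, it is assumed to vary like the CD11A- arrays. Itgal, Itgam and Itgax fell under the limit on dim probesets and have no value there. Leaving out one array gave 0 to 20 probesets called of 45037, the 20 without CD11A+ replicate 2, and the other alternatives gave 0, with 1917 at an unadjusted p under 0.05 in the reported fit, 3189 with sort day as a fixed and 4039 as a random block, 945 to 4747 when one array was left out, 867 without dim probesets, 1087 without day A and 2126 with the methods' t-test (19 at the methods' own stricter threshold, 0 after Benjamini-Hochberg adjustment). Arrays that share a replicate number had deviations from their group means that correlated, across probesets, at 0.12 (number 1) and -0.56 (number 2). The sort-day pairs correlated at 0.56 (day A) and 0.59 (day B), and with 2 CD11A+ arrays the value of number 2 is that of day A with its sign turned. Deviations of the 2 CD11A+ arrays mirror each other and those of the CD11A- arrays cancel out. The values of days A and B are therefore not independent of each other. The labels place same-numbered arrays on different sort days, so the numbers do not pair the arrays. With the replicate number as a block the differences were 1.79 for Itgal (1435560_at), 0.57 for Itgb2, -0.49 for Icam1 and -0.23 for Icam2, with 0 probesets called.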

Other observations

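Vcam1, the ligand of Itga4 on macrophages and stroma, had log2 values of 9.79 and 8.39 in CD11A+ HSCs, against 4.60, 7.91 and 5.47 in CD11A- HSCs. The groups did not overlap, as for 17.7% of all probesets. Vcam1 differed by 3.10 (standard error 1.00, adjusted p = 1.00 from limma), with 1.88 within day A, 2.92 within day B and 2.40 without CD11A+ replicate 1. It also stands in the macrophage list, and its part in that list's RNA was not tested. The multipotent progenitors of the methods were sorted as VCAM1+ too. Jam2, a binding partner of Jam3, was 6.81 and 6.73 in CD11A+ HSCs, against 7.83, 7.10 and 7.75 in CD11A- HSCs. Like Jam3 it was lower in both CD11A+ arrays than in every CD11A- array, as were 9% of all probesets. Jam2 differed by -0.79 on average (standard error 0.27, adjusted p = 1.00 from limma), and 1 of its 5 probesets had the opposite sign.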
